A study of Mus musculus with 3 samples.

Results

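Mitochondrial DNA carries its own small set of protein genes, and 10 of them were followed through peripheral blood mononuclear cells (PBMCs) of mice. They are mt-Nd1, mt-Nd2, mt-Nd3, mt-Nd4 and mt-Nd5 (subunits of complex I), mt-Cytb (complex III), mt-Co1, mt-Co2 and mt-Co3 (complex IV) and mt-Atp6 (complex V). They were taken by symbol from the 32285 genes of each count table. All barcodes with at least 200 genes entered, and cells with a high mitochondrial share were kept. All 10 genes were found in all 3 libraries.

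Respiratory complexes are built from subunits of mixed origin: a core is encoded in mitochondrial DNA and made inside the organelle, and the other subunits are encoded in the nucleus and imported. Complex II is made from nuclear genes alone. The mitochondrial genes are transcribed as long polycistronic RNAs that are cut at the tRNAs between them, and most of the resulting mRNAs carry a short poly(A) tail, which the oligo-dT primers of droplet sequencing capture. In blood cells the share of mitochondrial RNA is commonly read as a sign of damage, since a cell that leaks its cytoplasm keeps its mitochondria, and it also differs between cell types.

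The study compared young (8 weeks), aged (16 months) and aged-GA mice (16 months, given glycyrrhizic acid for 1 month) to ask how age and this licorice compound bear on immune cells. All mice were female C57BL/6; young mice were bought and aged mice were bred in the laboratory. Glycyrrhizic acid was injected into the tail vein every other day. The labels give no treatment for young and aged mice, and the methods state an injection of PBS for controls. Each group is 1 library of droplet single-cell RNA sequencing (10x Genomics, 3′ kit), so no test between groups could be made, and a difference between groups cannot be told apart from a difference between libraries. The study names several mice in each group behind its single library, so spread between mice cannot be seen. How their blood was combined is not stated.

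The kept barcodes numbered 9871 in young mice, 10572 in aged and 13480 in aged-GA mice, with a median of 4484, 3714 and 4576 unique molecular identifiers (UMIs, 1 per captured molecule). Between 50 and 62 barcode sequences were shared by each pair of libraries. Levels are UMIs of a gene per 1000000 UMIs of the same cells (CPM), with exact Poisson 95% intervals, and ratios carry exact binomial 95% intervals. Both cover counting error only. Cells were put in a class, called X-like, where at least 3 of its markers had a UMI and at most 1 marker of any other class did, which also leaves out many doublets. B-like cells numbered 2527, 3922 and 5286, and T-like cells 5253, 1831 and 2856 (young, aged, aged-GA). The presence of a class's own markers in its cells is fixed by this gate.

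The genes lie on chrM of mm10 in the order mt-Nd1 (chrM:2751-3707), mt-Nd2 (chrM:3914-4951), mt-Co1 (chrM:5328-6872), mt-Co2 (chrM:7013-7696), mt-Atp6 (chrM:7927-8607), mt-Co3 (chrM:8607-9390), mt-Nd3 (chrM:9459-9806), mt-Nd4 (chrM:10167-11544), mt-Nd5 (chrM:11742-13565) and mt-Cytb (chrM:14145-15288). All 10 are on the + strand and without introns. 3 further protein genes of this genome, mt-Atp8, mt-Nd4l and mt-Nd6, are given where they bear on a member. mt-Atp8 and mt-Nd4l are each the upstream reading frame of an mRNA that they share with mt-Atp6 and mt-Nd4. The overlaps of these frames are shown here because the shared mRNAs are compared further on. Capitals mark the start codon of the downstream frame and the stop codon of the upstream one.
mt-Atp8 and mt-Atp6, chrM:7927-7969: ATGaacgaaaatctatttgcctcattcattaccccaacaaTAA
mt-Nd4l and mt-Nd4, chrM:10167-10173: ATGcTAA

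A 3′ kit reads near the end of an mRNA. The last 60 bases of the 4 genes with the most extreme ratios, as annotated in GENCODE vM21, are shown too. Runs of 4 or more A are in capitals. These are ends of annotated genes, and where the mRNA of each gene ends was not determined. mt-Nd2 and mt-Co1 stood at the bottom and top of the comparison of aged with young mice, and mt-Nd5 and mt-Atp6 were lowest and highest in B-like cells between aged-GA and aged mice.
mt-Nd2, chrM:4892-4951: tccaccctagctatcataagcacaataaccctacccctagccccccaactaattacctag
mt-Co1, chrM:6813-6872: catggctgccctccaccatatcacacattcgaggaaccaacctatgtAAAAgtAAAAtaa
mt-Nd5, chrM:13506-13565: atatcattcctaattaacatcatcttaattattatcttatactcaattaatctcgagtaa
mt-Atp6, chrM:8548-8607: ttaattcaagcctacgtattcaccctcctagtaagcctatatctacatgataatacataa

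The annotated end of mt-Co1 holds 2 such runs and the other 3 ends hold none. Among the members not shown, the ends of mt-Co2 and mt-Cytb also hold 2, those of mt-Nd3 and mt-Nd4 hold 1, and those of mt-Nd1 and mt-Co3 hold none. Whether such runs bear on the ratios was not tested. Over each whole gene, the longest run of A was 8 bases in mt-Nd2, 7 in mt-Co1, mt-Nd4 and mt-Nd5, 6 in mt-Nd1 and 4 in mt-Co2. The nuclear genome holds copies of these genes. Of 13 pseudogenes in the annotation that share at least 50 stretches of 31 bases with a mitochondrial protein gene, none is listed in the count tables, and 9 of the 10 members have such a copy. The pseudogenes Gm28437, Gm10925 and Gm28661 hold 99.9% of the 31-base stretches of mt-Co3, 99.5% of those of mt-Atp6 and 99.5% of those of mt-Co2. Reads from these copies cannot be told apart from the mitochondrial ones, and their part in the counts was not tested.

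Mitochondrially encoded RNA was lowest in aged mice in each of the lymphoid classes. In T-like cells the 10 genes together took 50430 CPM in young mice (interval 50340 to 50510), 30410 in aged (30290 to 30530) and 43960 in aged-GA mice (43860 to 44060). In B-like cells they took 58270, 36000 and 51310 CPM. Aged cells thus held 60.3% of the young level in T-like and 61.8% in B-like cells, and aged-GA cells lay between, at 87.2% and 88.1% of it. The log2 ratio of aged over young was -0.73 (-0.74 to -0.72) in T-like and -0.69 (-0.70 to -0.69) in B-like cells, and that of aged-GA over aged was 0.53 (0.53 to 0.54) and 0.51 (0.51 to 0.52). Both comparisons use the same aged library, so they are not independent of each other.

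CD8 T-like, CD4 T-like, NK-like and monocyte-like cells kept this order of libraries. NK-like cells (333, 228 and 229 cells) held 33740, 20970 and 30900 CPM of the 10 genes. Monocyte-like cells held 28730 CPM in young mice (50 cells), 19790 in aged (621 cells) and 27870 in aged-GA mice (208 cells). The aged-GA level was close to the young one there, at a log2 ratio of -0.044 (-0.082 to -0.0058). Between classes, B-like cells held the most in each library, T-like cells followed and monocyte-like cells held the least of these 4 classes.

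**Figure D1:**
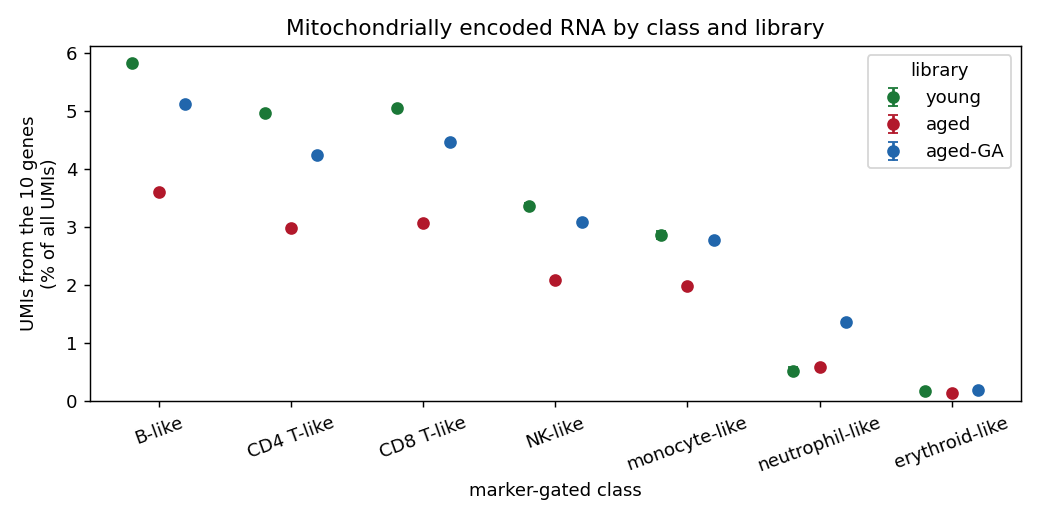
UMIs of the 10 mitochondrially encoded genes as a percentage of all UMIs (y axis) in marker-gated classes (x axis), with 1 point per library and exact Poisson 95% intervals, most of which are smaller than the points. In B-like cells the points lie at 5.83% in young mice, 3.60% in aged mice and 5.13% in aged-GA mice, and erythroid-like cells lie below 0.2% in each library.

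Complex I takes electrons from NADH, and 5 of its 7 mitochondrially encoded subunits were among the members. They had 8723, 5596 and 6698 CPM in T-like cells of young, aged and aged-GA mice and did not move as a block. mt-Nd2 had 2366, 1058 and 1726 CPM, and its aged level was 44.7% of the young one, the lowest of all 10 genes. mt-Nd1 had 1666, 1269 and 1571 CPM and mt-Nd4 2881, 2188 and 2177 CPM, with aged levels of 76.2% and 75.9% of the young ones. Both genes were thus less reduced than mt-Nd2, but only mt-Nd1 was higher in aged-GA than in aged mice.

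The log2 ratio of aged-GA over aged for mt-Nd4 was -0.0067 (-0.032 to 0.019) in T-like and -0.018 (-0.037 to 0.0023) in B-like cells, so that no difference was detectable at this depth. mt-Nd3 had 790.5, 483 and 680.5 CPM. mt-Nd5 had 1020, 598 and 544 CPM in T-like cells and 1303, 808 and 711 CPM in B-like cells. It was the 1 member with a lower level in aged-GA than in aged mice by more than counting error, at a log2 ratio of -0.14 (-0.19 to -0.09) in T-like and -0.18 (-0.22 to -0.15) in B-like cells. In monocyte-like cells, by contrast, mt-Nd4 was higher in aged-GA mice, at 0.33 (0.25 to 0.40), and the interval of mt-Nd5 covered 0.

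Complex III passes electrons to cytochrome c, and its mitochondrially encoded subunit is cytochrome b. mt-Cytb had 5362, 2847 and 4049 CPM in T-like cells of young, aged and aged-GA mice and 5970, 3413 and 4742 CPM in B-like cells. Its aged level was 53.1% and 57.2% of the young one, and aged-GA cells lay between.

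Complex IV, cytochrome c oxidase, reduces oxygen, and its 3 mitochondrially encoded subunits form its catalytic core. In T-like cells mt-Co1 had 8149 CPM in young mice, 6786 in aged and 7590 in aged-GA mice, mt-Co2 had 8098, 5021 and 7323, and mt-Co3 had 7047, 3654 and 6602. The 3 subunits thus parted: the log2 ratio of aged over young was -0.26 (-0.28 to -0.25) for mt-Co1, -0.69 (-0.70 to -0.67) for mt-Co2 and -0.95 (-0.96 to -0.93) for mt-Co3. B-like cells gave -0.30, -0.68 and -0.90. Between aged-GA and aged mice the same genes had 0.16, 0.54 and 0.85 in T-like cells. mt-Co1 moved least of the 10 genes with age in T-like, B-like, NK-like and monocyte-like cells, and mt-Nd2 most.

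Complex V is the ATP synthase, and mt-Atp6 encodes a part of its proton channel. It had 13050, 6506 and 11700 CPM in T-like cells and 13950, 7305 and 13210 CPM in B-like cells. Its aged level was 49.9% of the young one in T-like and 52.4% in B-like cells, and that of aged-GA mice was 89.7% and 94.7%. Of the 10 genes only mt-Nd2 was further below its young level in both classes.

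**Figure D2:**
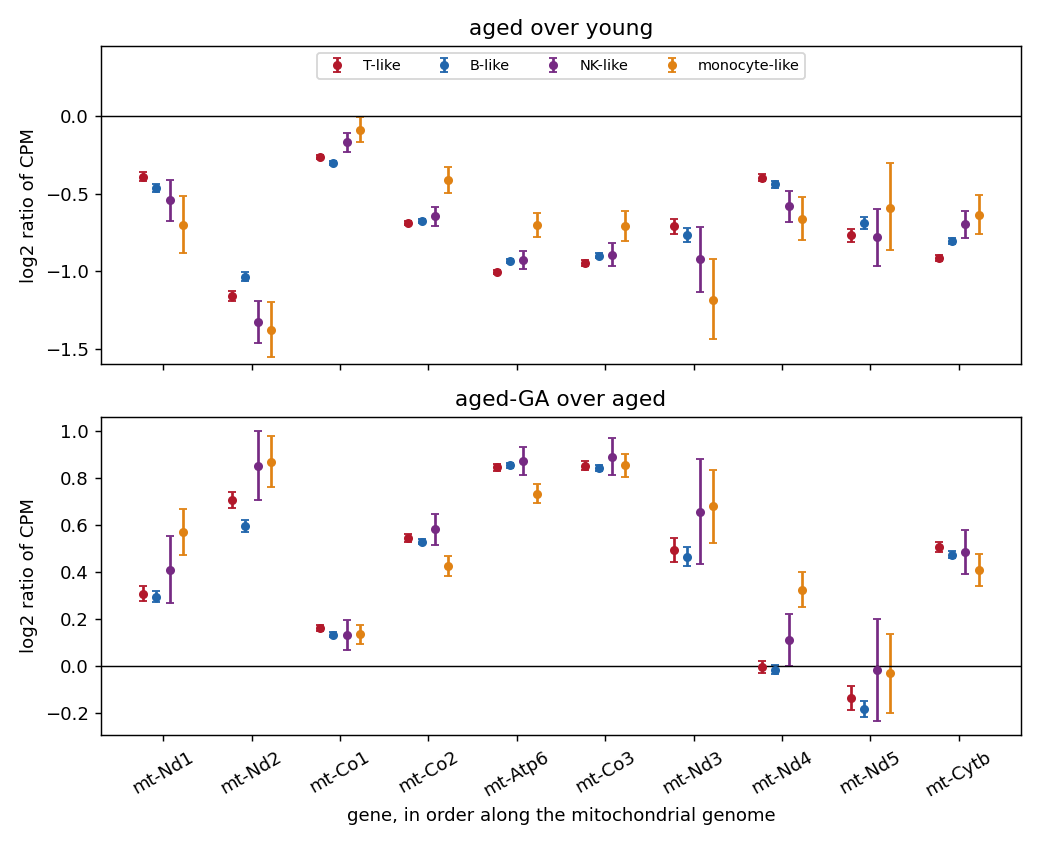
Log2 ratios of CPM (y axis) of the 10 genes in genome order (x axis) for aged over young (top) and aged-GA over aged (bottom), with 1 point per class and exact binomial 95% intervals. All points of the top panel are below 0, from -1.38 for mt-Nd2 in monocyte-like cells to -0.09 for mt-Co1 in the same cells. In each of the 4 classes mt-Nd2 is lowest and mt-Co1 highest there. Other genes differ between classes: mt-Nd1 is at -0.70 (-0.88 to -0.52) in monocyte-like cells and -0.39 in T-like cells.

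Per kilobase of gene, levels in T-like cells of young mice fell in the order mt-Atp6 (19160 CPM per kb), mt-Co2 (11840), mt-Co3 (8989), mt-Co1 (5275), mt-Cytb (4687), mt-Nd2 (2279), mt-Nd3 (2271), mt-Nd4 (2090), mt-Nd1 (1740) and mt-Nd5 (559). The complex I genes thus formed the lower end of the order, and the neighbours mt-Nd2 and mt-Nd3 had overlapping intervals. In aged mice mt-Nd2 was at 1020 CPM per kb, below mt-Nd1 (1326), mt-Nd3 (1388) and mt-Nd4 (1587). A 3′ kit counts ends and not lengths, so this order rests on the division by length and on where in each mRNA the primer bound. Without the division mt-Nd2 was above mt-Nd3, at 2366 and 790.5 CPM in young mice and 1058 and 483 CPM in aged mice. In aged mice mt-Nd2 was below mt-Nd1 (1269 CPM) and mt-Nd4 (2188 CPM) without it too.

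Relative to all genes, the members stood at the low end with age. Among genes with 100 or more UMIs in the pair of libraries, and with 1 CPM added, all genes had a median log2 ratio of aged over young of 0.35 in T-like and 0.26 in B-like cells, against -0.74 and -0.73 over the 10 members. 7 of the 10 members were over 1.5-fold lower in aged mice in each class, where 2.75% of all genes were so in T-like and 2.49% in B-like cells. None of the members was over 1.5-fold higher, against 28.3% and 20.7% of all genes. A lower ratio than that of mt-Nd2 was seen for 0.413% of genes in T-like and 0.789% in B-like cells.

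Between aged-GA and aged mice, mt-Nd2, mt-Co3 and mt-Atp6 were over 1.5-fold higher in T-like and in B-like cells, 3 of 10, beside 0.75% and 0.782% of all genes. None was over 1.5-fold lower, beside 1.7% and 1.07% of all genes. The median over all genes was -0.07 in T-like and -0.05 in B-like cells, and over the members 0.50 and 0.47. mt-Co3 and mt-Atp6 each had a higher ratio than 99.9% of genes in T-like cells, whereas mt-Nd5 was above 35.8% and mt-Nd4 above 62.1% of them.

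The make-up of mitochondrial RNA therefore differed between libraries, beside its amount. In T-like cells mt-Co1 gave 16.2% of the UMIs of the 10 genes in young mice (16.1% to 16.2%), 22.3% in aged (22.2% to 22.5%) and 17.3% in aged-GA mice (17.2% to 17.4%). mt-Atp6 gave 25.9%, 21.4% and 26.6%. B-like cells had 16.9%, 22.2% and 17.1% for mt-Co1 and 23.9%, 20.3% and 25.7% for mt-Atp6. NK-like cells held nearly the same shares, with 15.3%, 21.8% and 16.3% for mt-Co1. The share of mt-Co1 was thus highest in the aged library in these 3 classes, while that of mt-Atp6 was lowest there.

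On the shared mRNAs the upstream and downstream frames parted in a way that set the aged-GA library apart. For every 100 UMIs of mt-Atp6, T-like cells had 3.17 UMIs of mt-Atp8 in young mice (3.11 to 3.23), 4.73 in aged (4.54 to 4.91) and 0.952 in aged-GA mice (0.909 to 0.998). B-like cells had 3.45, 5.11 and 1.03, NK-like cells 3.73, 5.93 and 1.04, and monocyte-like cells 3.22, 4.63 and 1.16. mt-Atp8 encodes a small subunit of the same ATP synthase. Its counts in T-like cells were 414, 307.5 and 111 CPM. Counts of mt-Atp8 were thus lower in aged-GA than in aged mice (log2 ratio -1.47, -1.55 to -1.38) where those of mt-Atp6 were higher (0.85). Both frames lie on the same mRNA, so these counts are not levels of separate mRNAs.

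mt-Nd4l, another complex I subunit, was also lowest against its partner mt-Nd4 in the aged-GA library, but with age this pair moved the other way. T-like cells had 45.5 UMIs of mt-Nd4l per 100 of mt-Nd4 in young mice, 34.3 in aged mice and 20.4 in aged-GA mice, and B-like cells 42.4, 34.6 and 20.2. Its log2 ratio of aged-GA over aged was -0.76 (-0.81 to -0.71) in T-like cells. Each of these mRNAs carries both frames, and why their counts parted was not tested. mt-Nd6, the complex I gene on the - strand, had 58.4, 53.8 and 37.6 CPM in T-like cells. Counts of all 3 genes were lower in aged-GA than in aged mice in T-like and B-like cells.

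**Figure D3:**
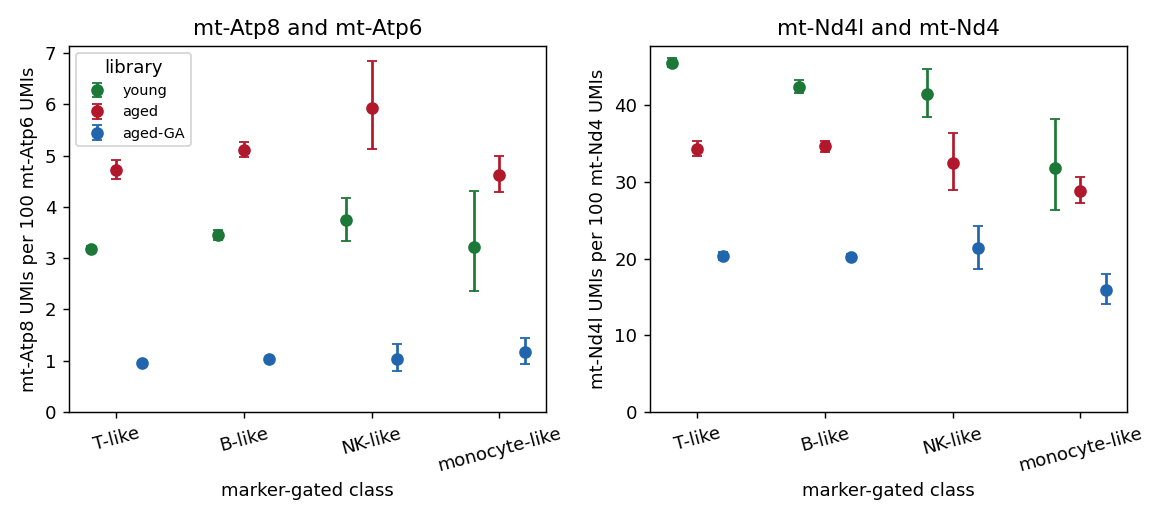
UMIs of mt-Atp8 per 100 UMIs of mt-Atp6 (left) and of mt-Nd4l per 100 of mt-Nd4 (right) by class (x axis) and library (colour), with exact binomial 95% intervals. On the left the aged-GA points lie between 0.952 and 1.16 and the aged points between 4.63 and 5.93. On the right aged-GA is lowest in each class.

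Nuclear-encoded subunits of the same complexes had ratios of the other sign. 75 subunits were counted. In T-like cells their summed level was 14510 CPM in young mice, 18080 in aged mice and 15550 in aged-GA mice, and in B-like cells 13310, 14710 and 13260 CPM. They were thus highest in the aged library, where the mitochondrially encoded genes were lowest. For each UMI of a nuclear-encoded subunit, T-like cells held 3.48 UMIs of the 10 members in young mice, 1.68 in aged mice and 2.83 in aged-GA mice, and B-like cells 4.38, 2.45 and 3.87.

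Of the 75 subunits in T-like cells, 62 had a ratio of aged over young above 0 and 13 below, where 7385 of 9204 genes were above 0, and their median log2 ratio was 0.35, as over all genes. 8 of them were over 1.5-fold higher, beside 28.3% of all genes. In B-like cells 58 were above 0, where 6591 of 8749 genes were, with a median of 0.15 beside 0.26 over all genes, and none passed 1.5-fold, beside 20.7% of all genes in the higher direction. Between aged-GA and aged mice 60 of 75 were below 0 in T-like cells and 57 in B-like cells. Of all genes, 62.1% lay below -0.0067 in T-like and 55.7% below -0.018 in B-like cells, which are the ratios of mt-Nd4. The medians of the subunits were -0.23 and -0.17 beside -0.07 and -0.05 over all genes. Most genes were thus below 0 there too, but the median gene by less. None of the 75 passed 1.5-fold in either direction, beside 0.75% and 0.782% of all genes higher and 1.7% and 1.07% lower. Where the subunits stood against the median gene with age depended on the genes counted: with no minimum of UMIs the all-gene median was 0.19 in T-like and 0.13 in B-like cells, below the 0.35 and 0.15 of the subunits.

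The contrast held within each complex that has both kinds of subunit. Most genes also had a ratio above 0 with age, with an all-gene median of 0.35 in T-like and 0.26 in B-like cells. In T-like cells the log2 ratio of aged over young was -0.64 for the members of complex I and 0.33 for its 37 nuclear-encoded subunits, -0.91 and 0.23 for complex III, -0.59 and 0.38 for complex IV, and -1.004 and 0.30 for complex V. Complex II, which links the respiratory chain to the citric acid cycle, had 0.20 (0.13 to 0.27) in T-like and 0.14 (0.06 to 0.21) in B-like cells. Between aged-GA and aged mice it had 0.03 (-0.04 to 0.11) in T-like cells, the only complex there whose nuclear-encoded sum was not below 0.

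**Figure D4:**
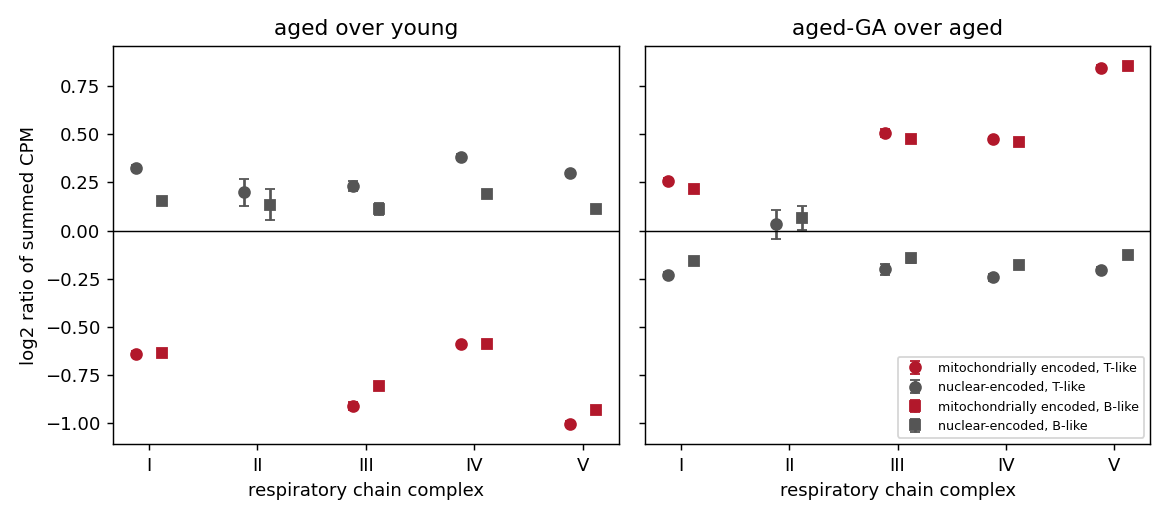
Log2 ratios of summed CPM (y axis) of the mitochondrially encoded members (red) and nuclear-encoded subunits (grey) of each respiratory complex (x axis) in T-like (circles) and B-like cells (squares), with exact binomial 95% intervals. With age red lies below 0. Grey lies above it, where the all-gene medians were 0.35 in T-like and 0.26 in B-like cells. Between aged-GA and aged mice red lies above 0, and grey lies below it except for complex II.

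Single nuclear-encoded subunits had log2 ratios of aged over young from -0.31 (Ndufa6) to 0.85 (Uqcr11) in T-like cells. In complex IV, Cox6b1, a small subunit facing the intermembrane space, had 256, 404 and 307 CPM in T-like cells of young, aged and aged-GA mice, and Cox4i1, which takes part in the regulation of the enzyme, had 553, 451 and 528 CPM. Cox4i1 had the lowest ratio with age among its complex in both classes, and its order of libraries was that of the mitochondrially encoded genes. In complex V, Atp5b, the catalytic beta subunit, was also lowest in the aged library, with 318, 287 and 328 CPM in T-like and 294, 233 and 284 CPM in B-like cells. Atp5k, a small membrane subunit, had 134.5, 196 and 143 CPM in T-like cells.

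In complex III, Uqcr11 was at 97.0, 175.5 and 128 CPM in T-like cells, the largest ratio with age of all 75 subunits. Uqcrc2, a core subunit, had 87.4, 82.6 and 97.3 CPM. In complex I, Ndufs7, an iron-sulfur subunit, had 70.9, 117 and 98.1 CPM and Ndufa6 280.5, 227 and 242 CPM. In complex II, Sdha, its flavoprotein, had 61.0, 76.8 and 87.2 CPM in T-like and 72.8, 84.3 and 97.8 CPM in B-like cells, higher in aged-GA than in aged mice in both.

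Genes that copy, transcribe and process mitochondrial DNA showed no shared shift of the size seen in the members. Of 24 such genes 21 had enough UMIs with age in T-like cells, with a median log2 ratio of 0.16, 14 above 0 and 7 below, beside 0.35 over all genes. With 10 CPM added these medians were 0.091 and 0.23. In B-like cells the median of the list was 0.10. Between aged-GA and aged mice the medians were 0.02 in T-like and 0.0047 in B-like cells. Polrmt, the mitochondrial RNA polymerase, had 3.78, 5.79 and 6.22 CPM in T-like and 4.32, 8.54 and 6.93 CPM in B-like cells, and so was higher in aged than in young mice. These levels are low and carry no interval. Of all genes, 28.3% in T-like and 20.7% in B-like cells were over 1.5-fold higher with age. Fastkd2, an RNA-binding protein of mitochondria, had 9.66, 6.02 and 7.39 CPM in T-like cells. Elac2, which cuts the 3′ side of tRNAs, had 9.15, 16.6 and 12.2 CPM.

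The shift was one of most cells and not of a few. Over T-like cells the median share of a cell's UMIs from the 10 genes was 4.92% in young mice (quartiles 4.30% and 5.63%), 2.88% in aged (2.44% and 3.50%) and 4.21% in aged-GA mice (3.58% and 4.95%). In B-like cells it was 5.60%, 3.44% and 4.83%. The upper quartile of aged T-like cells was thus below the lower quartiles of both other libraries. Cells of a library are not replicates, and these spreads describe cells only. NK-like cells had medians of 2.94%, 1.95% and 2.80% and monocyte-like cells 2.80%, 1.90% and 2.67%.

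**Figure D5:**
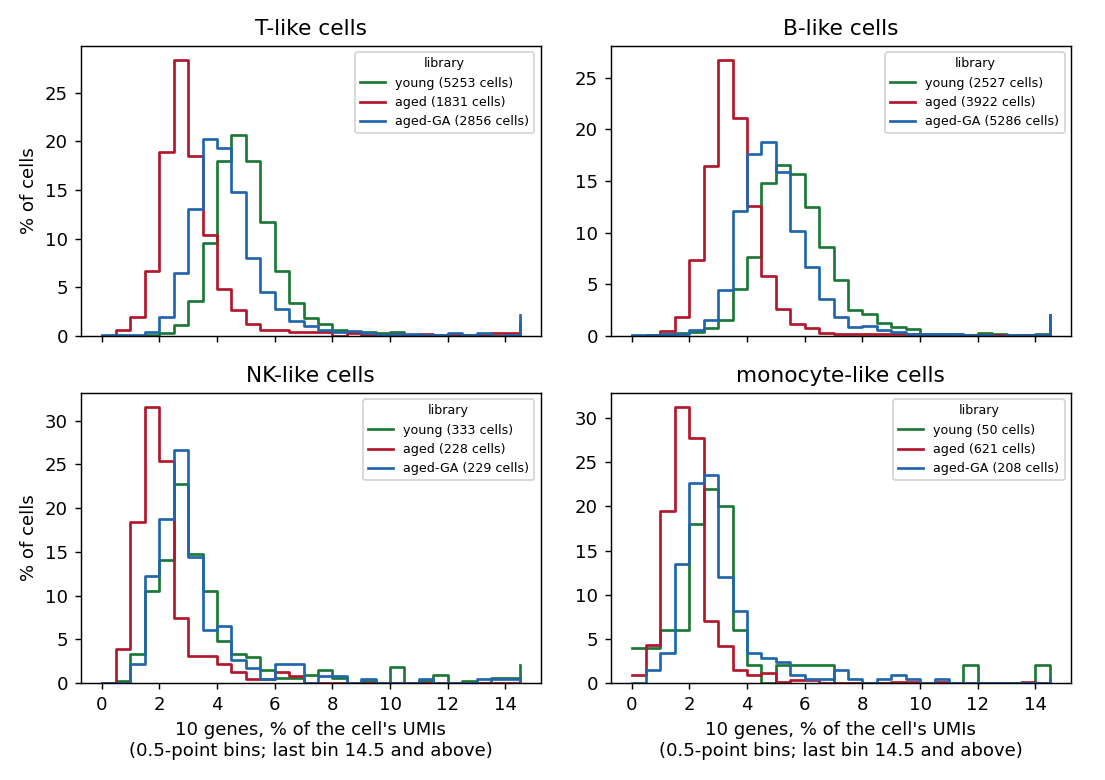
Percentage of cells (y axis) by the share of a cell's UMIs from the 10 genes (x axis) in 4 classes, with 1 line per library. In T-like cells the median is 4.92% in young mice, 2.88% in aged mice and 4.21% in aged-GA mice, and a thin tail reaches the last bin in each library.

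The study left out cells with over 7.5% mitochondrial UMIs. That limit would take 13.0% of B-like cells in young mice (11.7% to 14.4%), 2.68% in aged (2.20% to 3.23%) and 6.49% in aged-GA mice (5.84% to 7.19%). Of T-like cells it would take 5.67%, 3.99% and 5.88%. After drawing 500 UMIs from every cell, which all cells had, the values were 17.3%, 2.81% and 9.19% of B-like and 8.57%, 4.32% and 6.79% of T-like cells. Such a draw adds sampling error, which can carry cells near the limit across it. How far this moved the shares was not tested. Of B-like cells the limit thus took the largest share in young and the smallest in aged mice, with and without thinning. Of T-like cells it took the smallest share in aged mice both ways, and young and aged-GA mice changed places.

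Cells over the limit were not alike in the 3 libraries. B-like cells over the limit had a median of 3289 UMIs in young mice beside 3386 within it, 906 beside 3044 in aged mice, and 2979 beside 3721 in aged-GA mice. T-like cells had 3198 beside 5039, 1058 beside 4477, and 1581.5 beside 5546.5. Malat1, an RNA that stays in the nucleus, was at 52130 CPM outside mitochondrial genes in aged T-like cells over the limit and 17970 within it, at 26740 and 19240 CPM in young ones, and at 36970 and 17860 CPM in aged-GA ones. In B-like cells it was at 31240 and 26310 CPM in young mice, 44530 and 23550 in aged, and 33670 and 25300 in aged-GA mice. Cells over the limit thus had fewer UMIs and more Malat1 than those within it in each library and both classes. The ratio of both values was most extreme in the aged library.

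By depth, cells with 500 to 2000 UMIs held the highest shares, with 14.4%, 9.27% and 14.1% from the 10 genes in T-like cells (88, 102 and 120 cells). In B-like cells of that depth aged-GA mice, at 14.1%, were above young mice at 11.9% (179 and 114 cells). From 2000 UMIs upwards the order young, aged-GA, aged was seen at each depth. T-like cells with 4000 to 8000 UMIs had 4.98%, 2.95% and 4.28%, and B-like cells of that depth 5.99%, 3.69% and 5.21%.

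The order held in subsets of T-like cells too, which were split by genes chosen after the data were seen. In naive T-like cells (a UMI of Lef1 or Ccr7 and none of Ccl5 or S100a4), which made up 4395 of the young but 767 of the aged and 982 of the aged-GA T-like cells, the log2 ratio of the 10 genes was -0.74 for aged over young and 0.48 for aged-GA over aged. In memory T-like cells, with the reverse pattern (87, 342 and 402 cells), it was -0.63 and 0.60. The ratio with age was thus as large within naive cells as over all T-like cells. In memory T-like cells mt-Nd5 had a ratio of aged-GA over aged of 0.04 with an interval that covered 0. With age mt-Co3 and mt-Nd2 were lowest there, at -0.91 and -0.89, with little between them. mt-Nd1 (-0.13) and mt-Nd4 (-0.23) moved less with age there than mt-Co1 (-0.29).

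Neutrophil-like and erythroid-like cells stood apart from the lymphoid classes. Neutrophil-like cells had 5257 CPM of the 10 genes in young mice (12 cells), 5824 in aged (712 cells) and 13690 in aged-GA mice (424 cells). The young value rests on 292 UMIs, and its ratio to the aged one covered 0. All 10 genes were over 1.5-fold higher in aged-GA than in aged neutrophil-like cells, from 0.68 for mt-Co1 to 1.96 for mt-Nd2 on the log2 scale, beside 4.98% of the 2990 genes counted there and an all-gene median of 0.12. Their median share per cell was 0.330% in aged and 0.589% in aged-GA mice, with a 95th percentile of 1.97% and 6.29%. The upper tail of cells thus differed by more than the median cell. mt-Co1 gave 32.3% of the UMIs of the 10 genes in their aged library and 22.0% in the aged-GA one.

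Mature red cells hold no mitochondria, and erythroid-like barcodes had 1770, 1440 and 1943 CPM of the 10 genes, with 930200 to 935100 CPM of haemoglobin. mt-Co1 gave 41.8%, 38.4% and 30.5% of this RNA. In barcodes under 200 genes with over 50% haemoglobin UMIs (941, 5460 and 3812 barcodes), the 10 genes had 23500, 19290 and 26340 CPM of the UMIs outside haemoglobin. That is 9.44, 4.07 and 6.499 UMIs per barcode. Barcodes rich in haemoglobin thus carried members too, with the lowest level again in the aged library.

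Haemoglobin RNA differed between libraries within lymphocytes and so did genes of dissociation stress. In T-like cells the 4 red cell genes had 1292 CPM in young mice, 11400 in aged mice and 7390 in aged-GA mice, and in B-like cells 2872, 18210 and 10420 CPM. The 10 stress genes together had 4480, 3828 and 4197 CPM in T-like and 6502, 3738 and 4773 CPM in B-like cells, in the same order of libraries as the members. Jund and Junb gave most of this. Taken singly in T-like cells, Jund, Junb, Ier2 and Hspa1b had that order and the other stress genes did not. Fosb, for example, had 95.7, 143 and 179 CPM. In B-like cells all the stress genes except Fos and Fosb had that order. The sum of the stress genes had it too in NK-like cells (6514, 5002 and 5798 CPM) and monocyte-like cells (4589, 3184 and 3619 CPM). Malat1 was at 18480, 17740 and 17500 CPM in T-like cells. It had the members' order of libraries in B-like cells (25270, 22870 and 24350 CPM), NK-like cells (30590, 23540 and 27320 CPM) and monocyte-like cells (21250, 13540 and 17540 CPM). The part of red cell RNA, of Malat1-rich cells or of handling in the levels of the 10 genes was not tested. With haemoglobin left out of the totals the log2 ratio of aged over young was -0.71 in T-like and -0.67 in B-like cells.

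Over sums of the 5 classes with at least 50 cells in each library (15 points, in which the 3 points of a class share a cell type and the 5 of a library share its preparation), the genes whose level went most closely with that of the 10 members were sought. Among 2673 genes outside mitochondrial DNA, Pearson's r of log2(CPM + 1) was highest for Rps12 (0.993), Rps21 (0.993), Rpl13a (0.992), Rpl7 (0.991) and Rpl17 (0.991). Without erythroid-like cells, which are far below the others in all of them, r was 0.873 to 0.908 over 12 points, and these genes ranked 2, 4, 10, 11 and 5 in the order given. Rpl17 had 5293 CPM in young mice, 2569 in aged and 3902 in aged-GA T-like cells and Rps12 3278, 2291 and 3739 CPM. Both were lowest in the aged library, but these sums were among the points by which the genes were picked. Unlike the sum of the members, Rps12 was highest in aged-GA mice.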

How the data were processed

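For young, aged and aged-GA animals, 1 library of PBMCs each was sequenced. The authors aligned reads to mm10 with Cell Ranger (5.0.0 per the file headers, another version in the methods) and deposited tables of raw counts, in which each value is the number of UMIs of a gene in a barcode. The annotation used for counting is not given in the sources used here. Counts were used as deposited, without normalization between libraries, and no doublet caller was run.

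UMIs were summed over gated cells per library and scaled to CPM, with 4 significant digits kept. Kept libraries held 51288497, 54391962 and 78234643 UMIs. Exact Poisson and binomial 95% intervals (scipy 1.17.1, numpy 2.4.6, Python 3.11.15) cover counting error only. Ratios across all genes used a pseudocount of 1 CPM and a minimum of 100 UMIs over both libraries, and called means past 1.5-fold. With 1 library per group no p-values were computed. The all-gene ratios were tested on simulated sums that held known fold changes and counting error only. Such sums hold no spread between cells, mice or libraries, so this checks the calculation alone. Positions and sequences are from GENCODE vM21, whose gene IDs matched for all 10 genes.

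Named were the members, the other mitochondrial protein genes, markers, quality genes, the extremes of each list, among which the text names those with the clearest role, and the 5 genes most like the members. The members, markers and lists were chosen with earlier results of these data known. Pseudogenes were looked for, and the T-cell subsets set, after the values were seen. Alternatives changed the cell filters, gate, denominator, weighting, depth, pseudocount and minimum count.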

Additional observations from a re-analysis of the deposited data

Results flagged for a closer look

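For 5 combinations of a gene and a comparison the interval lay above 0 in one class and below 0 in another, among classes with at least 50 cells in both libraries. With 1 library per group these differences between classes were not tested.

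4 of them concern aged over young and erythroid-like cells. mt-Nd1 had a log2 ratio of 1.51 (1.00 to 2.03) in erythroid-like cells, from 67 and 64 UMIs, and -0.70 in monocyte-like cells, 2.22 apart. mt-Nd2 had 0.82 (0.19 to 1.45) there, from 37 and 57 UMIs, and -1.38 in monocyte-like cells, 2.205 apart. mt-Nd4 had 0.63 (0.25 to 1.01), from 91 and 160 UMIs, and -0.66, 1.295 apart. mt-Nd4l had 0.93 (0.09 to 1.74), from 23 and 33 UMIs, and -0.94 in NK-like cells, 1.86 apart. Malat1, an RNA of nucleated cells, had 75.7 CPM in erythroid-like barcodes of young mice and 248 CPM in those of aged mice.

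The other concerns mt-Nd5 between aged-GA and aged mice. Its log2 ratio was 0.86 (0.53 to 1.20) in neutrophil-like cells, from 159 and 138 UMIs, and -0.18 (-0.22 to -0.15) in B-like cells, 1.05 apart. It was above 0 in 1 and below 0 in 2 of the 6 classes compared.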

How the results depend on the processing

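The log2 ratio of the 10 genes kept its sign under all 11 alternatives in T-like and all 9 in B-like cells, from -0.79 to -0.63 and -0.81 to -0.61 for aged over young, and from 0.48 to 0.60 and 0.46 to 0.57 for aged-GA over aged. Values are given as T-like then B-like, and those left out stayed within the interval. For aged over young they were -0.61 in B-like cells under the filters of the study, -0.78 and -0.70 in cells of 2000 to 6000 UMIs, -0.68 and -0.71 with no marker of another class, -0.79 and -0.81 with 2 own markers and more than of any other class, -0.71 and -0.67 without haemoglobin in the total, -0.75 and -0.71 without haemoglobin and mitochondrial genes, -0.63 and -0.70 as a mean over cells, and -0.64 and -0.71 thinned to 500 UMIs. For aged-GA over aged they were, in the same order, 0.52 and 0.46, 0.54 in T-like cells, 0.51 and 0.52, 0.54 and 0.57, 0.50 in B-like cells, 0.55 and 0.52, 0.50 and 0.52, and 0.51 and 0.52. Chosen after the data were seen, naive T-like cells gave -0.74 and 0.48 and memory T-like cells -0.63 and 0.60 (aged over young, aged-GA over aged). What moved these values was not tested.

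Of 400 ratios of single genes under the alternatives 394 kept their sign, all 200 for aged over young among them. One whose interval had excluded 0 changed sign, mt-Nd5 between aged-GA and aged mice, which was 0.041 in memory T-like cells. Counts of members past 1.5-fold stayed at 7 and 3 under another pseudocount, minimum count or total. The members lie far above the added CPM and the minimum, so those settings could hardly move the counts. Other settings moved single members across the line. Between aged-GA and aged mice mt-Nd2 in B-like cells was 0.55 under the filters of the study, short of 1.5-fold. mt-Nd3 in T-like cells was 0.63 when thinned to 500 UMIs, past it. In memory T-like cells mt-Nd3 and mt-Co2 were 0.62 and 0.63, also past it. With age mt-Nd3 and mt-Nd5 were -0.53 and -0.31 in memory T-like cells, short of it. Under the gate with 2 own markers and more than of any other class, mt-Nd1 in B-like cells was -0.60 with age, past it. The all-gene median with age depended on the pseudocount and minimum count: it was 0.23 in T-like and 0.18 in B-like cells with 10 CPM added, and 0.19 and 0.13 with no minimum. No paired analysis was possible because each group has 1 library. Monocyte-like cells of young mice (50 cells) and neutrophil-like cells of young mice (12 cells) limit what can be read from those classes.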
